A study of Rattus norvegicus with 20 samples.

Results

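Respiratory complexes II, III and IV and cytochrome c carry electrons through the inner mitochondrial membrane, and their nuclear genes were examined here in the medial prefrontal cortex (mPFC) of rats given LSD for a long period. Members were taken by symbol: names that begin with Cox and a digit, with Uqcr, or with Sdha, Sdhb, Sdhc or Sdhd, together with Cyc1, Cycs, Surf1, Sco1 and Sco2. The deposited matrix lists 47 such symbols among 31038 gene entries. Of these, 42 reached 5 reads in 10 or more of the 20 libraries, among 16605 genes that passed this filter. The rule uses symbols and read counts alone.

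The samples were 20 male Sprague-Dawley rats, aged 6 to 8 weeks at the start per the labels (the study's methods give another age). LSD (lysergic acid diethylamide, a serotonergic psychedelic) was given i.p. at 0.16 mg/kg on alternate days over 90 days to 10 rats, and 10 controls received sterile saline on the same schedule. Tissue was collected after 3 weeks without drug per the labels (the study's methods give another interval), and poly(A)-selected RNA was sequenced with 1 library per rat. No genetic change is named for either group, and all rats were of a single sex and strain.

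Complex II (succinate dehydrogenase) oxidises succinate in the citric acid cycle and passes the electrons to ubiquinone. Complex III (cytochrome bc1) moves them from ubiquinol to cytochrome c, and complex IV (cytochrome c oxidase) hands them to oxygen. Complexes III and IV pump protons, and the gradient drives ATP synthase. Complex II is built wholly from nuclear genes, whereas the catalytic centres of complex IV and cytochrome b of complex III are encoded by the mitochondrial genome. In cortex, cytochrome oxidase activity is a classical marker of the energy demand of neurons.

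Libraries of LSD-treated rats held 16346629 to 25552681 reads on genes and those of controls 11098076 to 24201351, so the libraries of the former were larger (exact two-sided permutation test of the rank sum, p = 0.0147, n = 10 rats per group). The members together took 0.391% to 0.454% of these reads in LSD-treated rats, with a median of 0.405%, and 0.399% to 0.565% in controls, with a median of 0.449%. Saline replicate 9 stood apart, with the highest share of reads on members, and results are also given without it. All 7 neuronal markers, among them Rbfox3 and Slc17a7, were detected, and their summed level was 5777 to 7101 RPM (reads scaled to a common library size) in LSD-treated rats and 5643 to 7378 RPM in controls. The summed level of 6 oligodendrocyte markers was 2232 to 5761 RPM (median 3853) with LSD and 2195 to 7479 RPM (median 4751) in controls, and 0 of the 6 passed the test (edgeR's lowest adjusted p = 0.0715, for Mag). That of 3 blood genes had medians of 347 and 425 RPM in the same order, and 1 of them (Hbb) was lower with an adjusted p of 0.0434. Of 3 muscle genes, Ckm stood at 0 to 6 reads and Acta1 was lower, with an adjusted p of 0.0492. Gad2 (neurons) and Slc1a2 (astrocytes) were higher, with adjusted p-values of 0.0369 and 0.0423, and 0 of 20 microglial, endothelial, mural and choroid plexus markers passed. The part of these cells in the results was not tested. In bulk tissue, fewer cells of a type and less RNA per cell cannot be told apart.

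The nuclear genes of complexes III and IV were lower in LSD-treated rats at many of their subunits, and those of complex II at 1. Of the 42 members, 15 fell and 0 rose at an adjusted p under 0.05 (edgeR's quasi-likelihood test, TMM scaling, Benjamini-Hochberg adjustment over all 16605 genes). That was 35.7% of the members, against a background of 8.54% of all genes tested that were lower and 6.48% that were higher. At an unadjusted p under 0.05, 19 members were lower and 2 higher, and DESeq2 called 16 lower and 0 higher. The median log2 fold change was -0.12 over the members and 0.00 over all genes tested. A negative sign was found for 36 of the 42 members and for 8237 of the 16605 genes. The number of negative members was 28 with scaling by total counts and 30 without saline replicate 9.

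The changes were small, from 0.724 to 0.894 of the control level among the 15. In 14 of them every LSD-treated rat lay below the control median, yet the ranges of both groups overlapped for each member. The 15 were called on these same values, so the count below the median is not separate support. Neither count was made over all genes. Over all genes, 56.9% of the calls were lower with TMM scaling, 36.3% with scaling by total counts and 46.5% without the filter on low counts. All calls among the members were lower under each of these 3 settings, 11 with total counts and 12 without the filter.

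By complex, 1 of 7 complex II genes fell (14.3%, median log2 fold change -0.07). So did 5 of 9 complex III genes (55.6%, median -0.26) and 9 of 24 complex IV genes (37.5%, median -0.15). Of all genes tested, 8.54% were lower. Cytochrome c (Cycs) had the most positive value, +0.34, and did not pass. Whether these shares differ between the complexes was not tested.

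**Figure D1:**
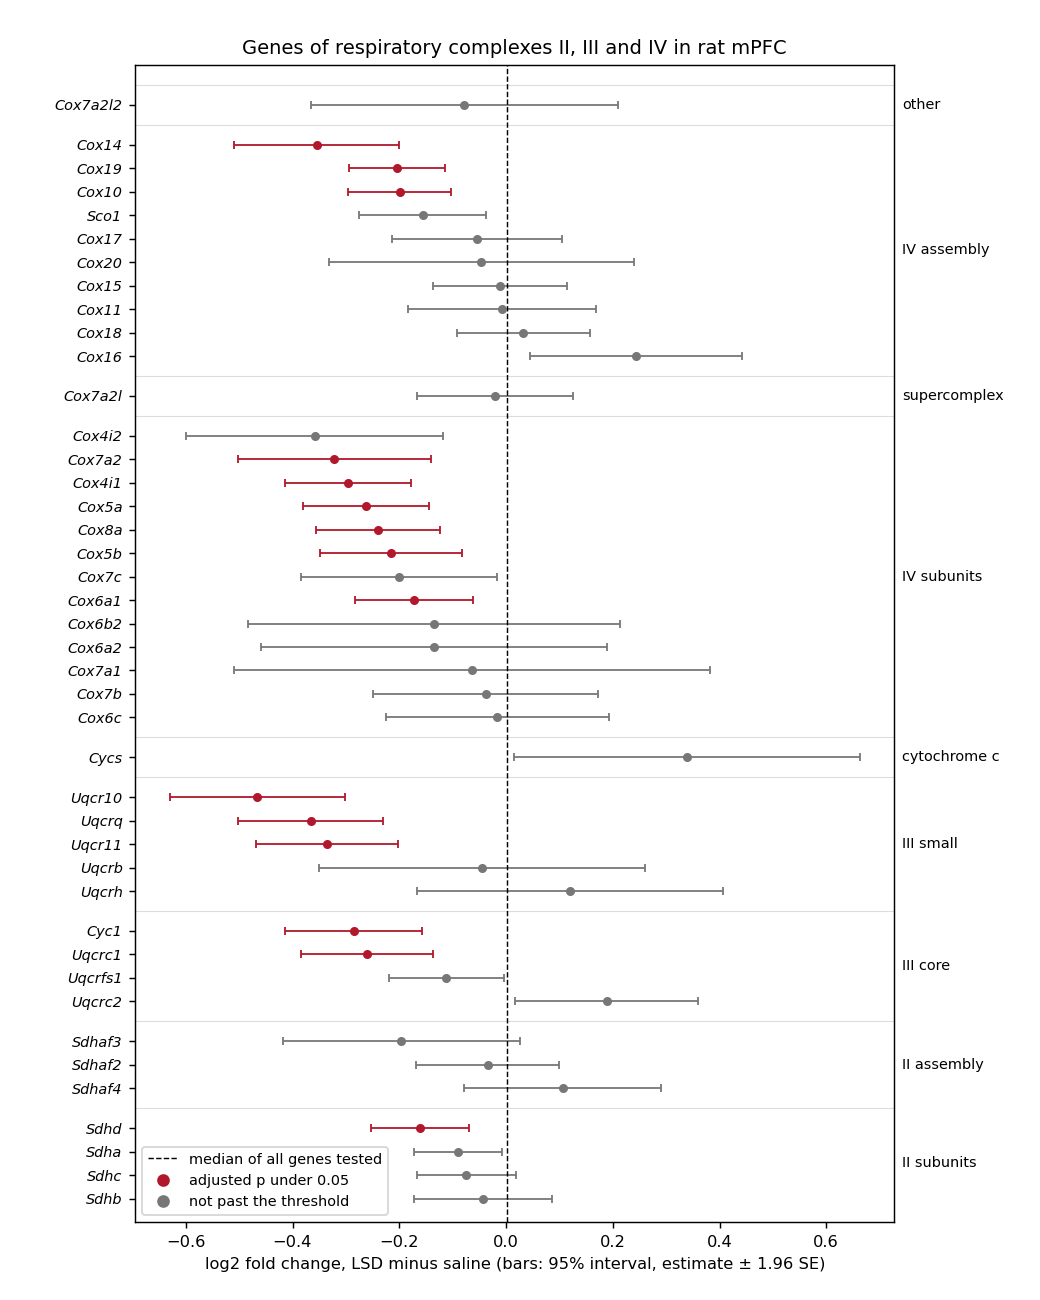
Log2 fold change (LSD minus saline) of the 42 genes with its 95% interval (points and bars), ordered by complex and role, with the 15 genes past an adjusted p of 0.05 in red and the median of all genes tested as a dashed line. All red points lie left of the line, 3 of the 5 small subunits of complex III and 6 of the 13 complex IV subunits among them.

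Gene span, the distance between the start and end of a gene in the genome, moved with these results. Over 14929 genes with a span, the log2 fold change rose with span (Spearman's rho = 0.36 across genes, which are not independent replicates). Members were shorter, with a median span of 9516 bases against 24514 bases over all genes. By complex, the median span was 20893 bases for complex II, 7181 for complex III and 10444 for complex IV. Of the 22 members in the shortest class of genes (spans up to 9918 bases, 3733 genes), 11 fell, and of the 20 longer ones 4 fell. In that class as a whole, 18.2% of genes were lower and 1.31% higher, and 2635 of the 3733 had a negative sign. How far a library departed from the average rat also followed span, with rho from 0.0743 to 0.291 in LSD-treated rats and from -0.434 (saline replicate 9) to 0.113 in controls (exact two-sided permutation test of the rank sum, p = 4.33e-05, higher than the control median in 10 of 10 LSD-treated rats). Offsets that take a span curve out of each library were also used. With them, the members' median log2 fold change was -0.06, and 26 of the 42 had a negative sign. Under these offsets, 10 members fell and 0 rose (23.8% of members, beside 6.36% of all genes lower). The 10 were Uqcr10, Uqcrq, Uqcr11, Uqcrc1, Cox4i1, Cox5a, Cox7a2, Cox10, Cox14 and Cox19. Cyc1, Cox8a, Cox5b, Cox6a1 and Sdhd did not pass with these offsets, with adjusted p-values of 0.0521, 0.0749, 0.294, 0.411 and 0.161. The part of span in the difference between the groups was not tested further.

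**Figure D2:**
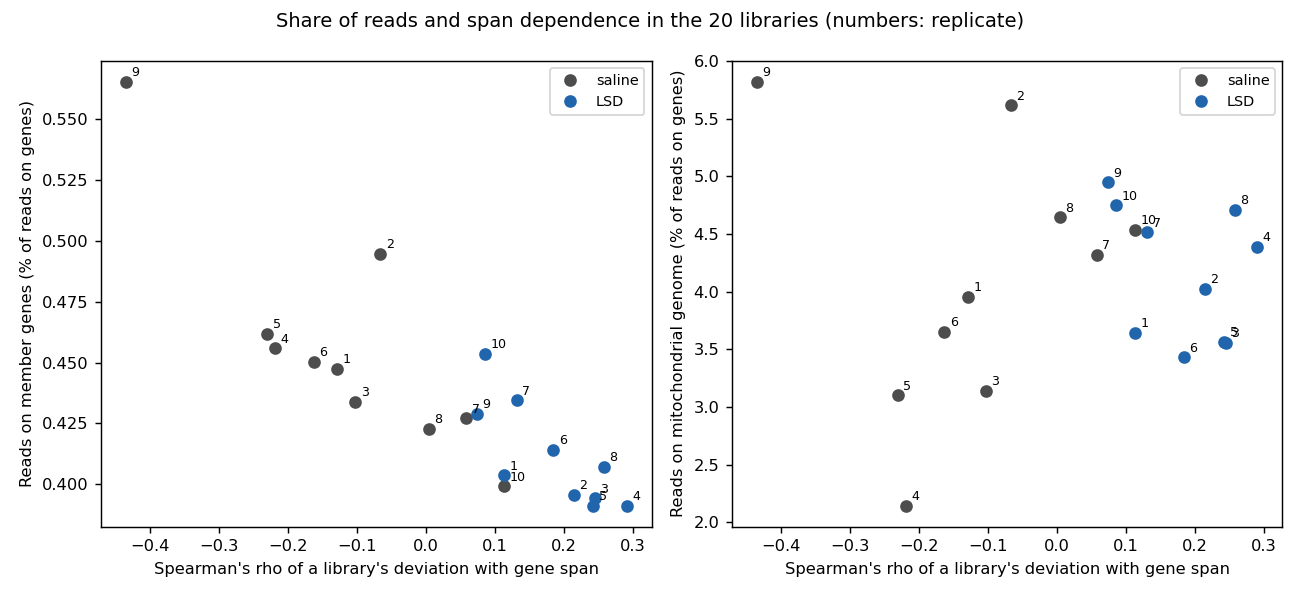
Share of reads on the 42 member genes (left) and on 13 protein genes of the mitochondrial genome (right), in percent of reads on genes, against Spearman's rho between a library's deviation and gene span, with 1 point per rat and its replicate number. Saline replicate 9 lies at a rho of -0.434 with 0.565% of its reads on members, and LSD-treated rats lie between 0.0743 and 0.291.

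Promoters of members that fell, and of 1 partner that did not, are given because nuclear respiratory genes are known to share letters for ETS factors such as GABP and for NRF1. RefSeq (GRCr8) held a promoter for 36 of the 42 members, and Uqcr11, Cyc1, Cox6a1, Cox4i2, Uqcrb and Cox6c were without an entry. Each window ran from 250 bases before to 30 bases after the start of the gene, and each motif was searched on both strands. The ETS letters CCGGAAG stood in 16 of the 36 windows (44.4%), in 6 of 12 members that fell and in 10 of the 24 others, against 8.91% of the windows of 27457 symbols. The NRF1 letters, GCGCA and GCGC with any 1 base between them, stood in 6 windows (16.7%), in 1 of the 12 and 5 of the 24, against 4.56%. GGGCGG, as bound by SP1, stood in 15 (41.7%, against 33.8%), AAGATGGCG (YY1) and TGACGTCA (CRE) in 2 each, against 1.59% and 1.84%, and TCAAGGTCA (ERR) in 0, against 0.375%. No motif contains another. Windows of Uqcr10 (chr14:83791885-83792164, minus strand), Uqcrq (chr10:38089949-38090228, minus strand), Uqcrc1 (chr8:118467973-118468252, plus strand), Uqcrc2 (chr1:184598990-184599269, plus strand) and Cox4i1 (chr19:65630133-65630412, plus strand) are printed 5′ to 3′ along the gene's own strand. Capitals mark ETS or NRF1 letters on either strand. Uqcr10, the member with the most negative fold change, holds neither, Uqcrq and Cox4i1 hold ETS letters close to the start, and of the core pair Uqcrc1 holds NRF1 letters and Uqcrc2 ETS letters at both marked places. A match of letters is not a measured binding site.
Uqcr10: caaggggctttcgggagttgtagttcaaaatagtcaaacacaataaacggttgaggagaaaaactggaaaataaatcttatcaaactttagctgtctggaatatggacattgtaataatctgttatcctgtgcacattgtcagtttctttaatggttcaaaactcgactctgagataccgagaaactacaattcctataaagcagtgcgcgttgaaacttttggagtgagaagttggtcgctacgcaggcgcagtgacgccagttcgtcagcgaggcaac
Uqcrq: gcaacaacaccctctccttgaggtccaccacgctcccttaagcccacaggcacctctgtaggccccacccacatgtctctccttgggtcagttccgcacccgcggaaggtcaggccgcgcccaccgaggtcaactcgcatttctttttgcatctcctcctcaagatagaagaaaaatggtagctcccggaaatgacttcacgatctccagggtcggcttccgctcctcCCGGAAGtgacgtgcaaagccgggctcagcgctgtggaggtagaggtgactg
Uqcrc1: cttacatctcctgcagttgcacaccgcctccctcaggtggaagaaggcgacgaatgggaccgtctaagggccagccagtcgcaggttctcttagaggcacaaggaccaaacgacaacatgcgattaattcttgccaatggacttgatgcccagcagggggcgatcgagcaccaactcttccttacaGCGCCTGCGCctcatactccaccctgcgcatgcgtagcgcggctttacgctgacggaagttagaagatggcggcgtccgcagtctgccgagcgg
Uqcrc2: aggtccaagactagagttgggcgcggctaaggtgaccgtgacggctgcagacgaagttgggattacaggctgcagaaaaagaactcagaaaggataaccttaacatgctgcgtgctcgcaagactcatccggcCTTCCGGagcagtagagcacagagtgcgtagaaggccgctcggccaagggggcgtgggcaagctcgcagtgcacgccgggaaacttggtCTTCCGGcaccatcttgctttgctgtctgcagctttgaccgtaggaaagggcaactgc
Cox4i1: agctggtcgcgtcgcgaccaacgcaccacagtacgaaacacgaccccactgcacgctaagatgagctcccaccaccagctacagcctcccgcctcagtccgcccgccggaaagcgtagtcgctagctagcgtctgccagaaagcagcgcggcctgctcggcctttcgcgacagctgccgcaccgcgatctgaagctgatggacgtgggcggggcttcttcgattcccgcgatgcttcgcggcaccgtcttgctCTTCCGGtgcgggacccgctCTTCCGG

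Complex II had the fewest calls of the complexes, 1 of 7 genes (14.3%, beside 8.54% of all genes tested). All 4 subunits had negative fold changes in the main fit, from -0.16 to -0.04 on the log2 scale, and Sdhd alone passed the test. With total-count scaling, Sdhb was at +0.00209. Sdhd encodes 1 of the membrane anchors that hold haem and ubiquinone. The level of Sdhd was 53.4 RPM in the lowest, 55.3 RPM in the median and 61.2 RPM in the highest LSD-treated rat, after TMM scaling as for all RPM values here. In controls it was 55.9, 62.1 and 72.2 RPM in the same order. All 10 LSD-treated rats lay below the control median, although 5 lay within the control range. The log2 fold change was -0.16 (SE 0.0472, edgeR adjusted p = 0.0255), and the call was also lost at equal depth, with scaling by total counts and without the filter.

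Sdhc, the other anchor, had 81.0, 85.0 and 96.0 RPM (lowest, median and highest) with LSD and 83.6, 87.4 and 107 RPM in controls. The ranges overlapped for most rats, and the log2 fold change of -0.07 (SE 0.0472) did not pass (edgeR adjusted p = 0.298). Sdha, the flavoprotein that oxidises succinate, had 367, 389 and 422 RPM with LSD and 373, 417 and 457 RPM in controls. Of the LSD-treated rats, 9 lay below the control median of Sdha, and its log2 fold change was -0.09 (SE 0.0418, edgeR adjusted p = 0.146). Sdhb, the iron-sulphur subunit, had 115, 121 and 139 RPM with LSD and 108, 124 and 157 RPM in controls, with a log2 fold change of -0.04 (SE 0.0661, edgeR adjusted p = 0.702). The LSD-treated rats thus lay inside the control range for Sdhb. The 3 assembly factors (Sdhaf2, Sdhaf3 and Sdhaf4) had log2 fold changes from -0.20 to +0.11, and 0 of them passed (0 also at an unadjusted p under 0.05).

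Complex III held the largest fall of any member. Its small subunits Uqcr10, Uqcrq and Uqcr11, which surround the catalytic core, fell together. Uqcrb and Uqcrh, of the same group, had log2 fold changes of -0.05 (SE 0.156) and +0.12 (SE 0.146) and did not pass (edgeR adjusted p = 0.880 and 0.620). Their 95% intervals were wide, from -0.35 to +0.26 for Uqcrb and from -0.17 to +0.41 for Uqcrh. That of Uqcrb holds the value of Uqcr11, -0.34. Uqcr10 had 95.2, 103 and 114 RPM (lowest, median and highest) with LSD and 105, 142 and 177 RPM in controls. In Uqcr10, 9 of the 10 controls lay above every LSD-treated rat. The log2 fold change was -0.47 (SE 0.0838, edgeR adjusted p = 0.00402), or 0.724 of the control level, and it was -0.33 with the span offsets.

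Uqcrq, which contacts cytochrome b, had 116, 126 and 138 RPM with LSD and 131, 158 and 203 RPM in controls. In Uqcrq, 8 LSD-treated rats lay below all controls. Its log2 fold change was -0.37 (SE 0.0694, edgeR adjusted p = 0.00449). Uqcr11, a small membrane subunit, had 225, 249 and 271 RPM with LSD and 246, 311 and 401 RPM in controls, with a log2 fold change of -0.34 (SE 0.0678, edgeR adjusted p = 0.00623). In Uqcr11, 4 LSD-treated rats lay below all controls.

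The 4 catalytic and core genes divided. Cyc1, the haem protein cytochrome c1, had 221, 233 and 255 RPM with LSD and 224, 288 and 349 RPM in controls. In Cyc1, 7 controls lay above all LSD-treated rats, while 1 LSD-treated rat lay below all controls. The log2 fold change was -0.29 (SE 0.0653, edgeR adjusted p = 0.00888).

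Uqcrc1 and Uqcrc2 encode the paired core proteins, related to mitochondrial processing peptidases. Uqcrc1 had 283, 295 and 330 RPM with LSD and 290, 361 and 432 RPM in controls, with a log2 fold change of -0.26 (SE 0.0629, edgeR adjusted p = 0.0110). In Uqcrc1 as in Cyc1, 7 controls lay above every LSD-treated rat. Uqcrc2 had 104, 124 and 142 RPM with LSD and 80.5, 110 and 146 RPM in controls. For Uqcrc2, 9 LSD-treated rats lay above the control median, and all lay within the control range. Its log2 fold change was +0.19 (SE 0.0875, edgeR adjusted p = 0.144), with a 95% interval from 0.02 to 0.36 before adjustment, while that of Uqcrc1 ran from -0.38 to -0.14. Uqcrfs1, the Rieske iron-sulphur protein, had 99.4, 106 and 115 RPM with LSD and 92.5, 116 and 134 RPM in controls. All 10 LSD-treated rats lay below the control median of Uqcrfs1, within the control range, and its log2 fold change was -0.11 (SE 0.0552, edgeR adjusted p = 0.172).

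Cytochrome c (Cycs), the soluble carrier between complexes III and IV, was the member with the highest fold change. Its level was 5.69, 6.26 and 10.2 RPM with LSD and 3.36, 5.58 and 9.61 RPM in controls. Every LSD-treated rat lay above the control median and 1 lay above all controls. The log2 fold change was +0.34 (SE 0.165, edgeR adjusted p = 0.165), and without saline replicate 2, the control with the highest level, it was +0.47 and passed with an adjusted p of 0.0272.

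**Figure D3:**
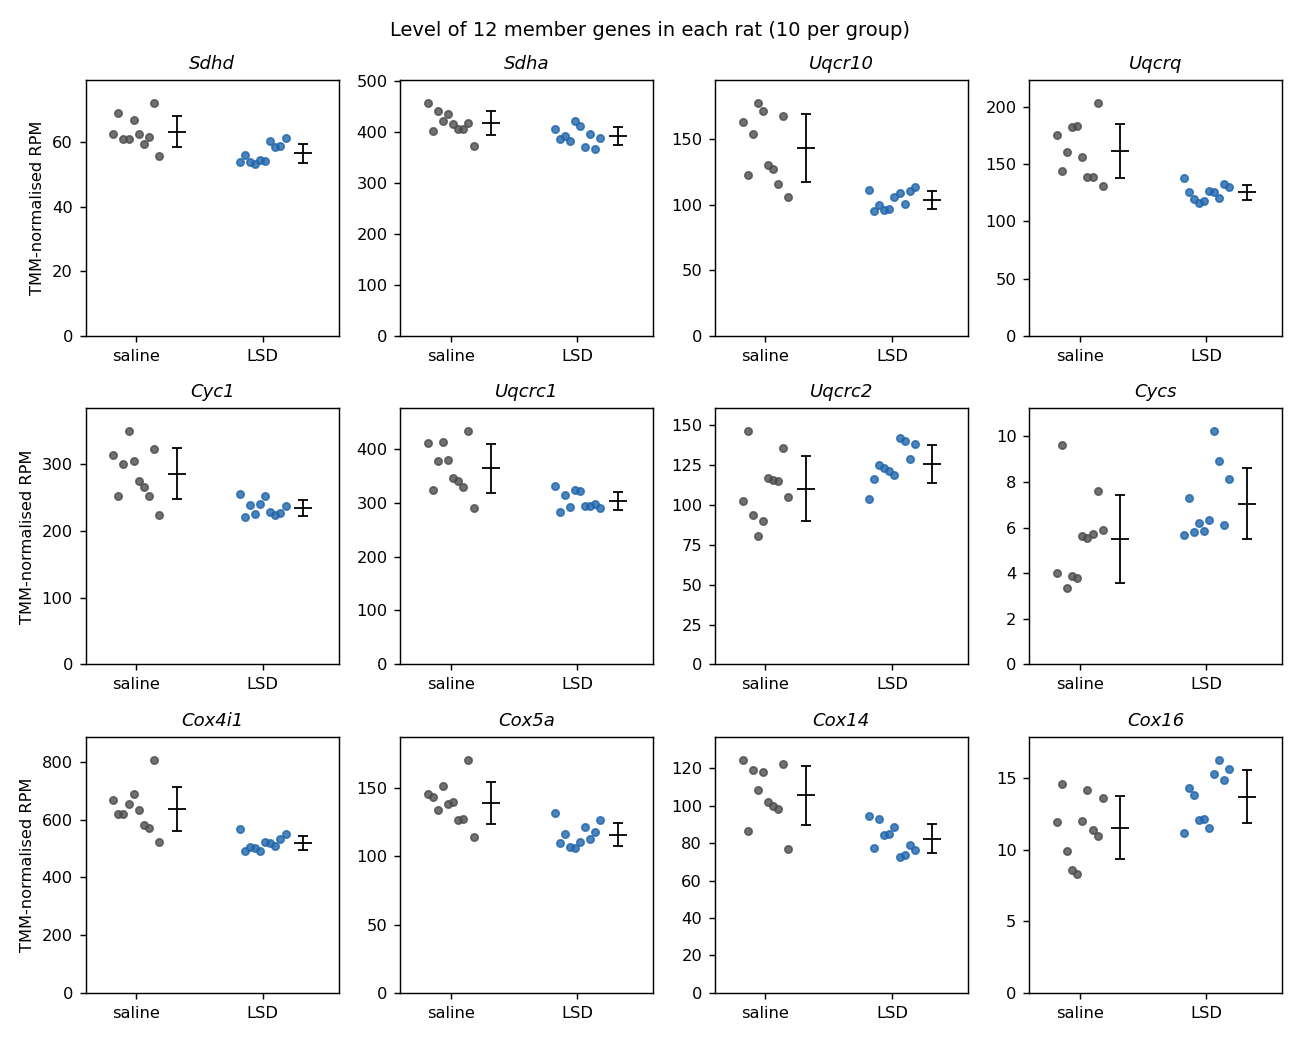
TMM-normalised RPM of 12 member genes in each rat, with 10 controls and 10 LSD-treated rats as points and the group mean ± SD as bars beside them; axes start at 0. The points of Uqcr10, Uqcrq, Cyc1, Uqcrc1, Cox4i1, Cox5a, Cox14 and Sdhd lie lower with LSD, and those of Uqcrc2, Cycs and Cox16 do not.

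Complex IV had negative fold changes at all 13 nuclear subunits tested in the main fit, and 6 of them fell (46.2%, beside 8.54% of all genes tested). The sign of some that did not pass depended on the processing. With span offsets, Cox7b, Cox6c and Cox6a2 were at +0.0558, +0.0353 and +0.00185. With total-count scaling, Cox7b and Cox6c were at +0.00302 and +0.0277. Cox4i1, the main isoform of subunit IV, through which ATP regulates the enzyme, had 490, 513 and 567 RPM (lowest, median and highest) with LSD and 523, 626 and 807 RPM in controls. In Cox4i1, 9 controls lay above every LSD-treated rat and 6 LSD-treated rats lay below all controls. The log2 fold change was -0.30 (SE 0.0604, edgeR adjusted p = 0.00623), or 0.815 of the control level. Its isoform Cox4i2, known for its induction by hypoxia, had 1.98, 2.71 and 3.40 RPM with LSD and 2.52, 3.32 and 5.19 RPM in controls. Only 35 to 103 reads per library stood behind Cox4i2. Its log2 fold change was -0.36 (SE 0.123), just outside the threshold with an adjusted p of 0.0501, and it passed with DESeq2 (0.0380).

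Cox5a and Cox5b, the nuclear subunits on the matrix side, fell together. Cox5a had 106, 114 and 132 RPM with LSD and 114, 139 and 170 RPM in controls, with a log2 fold change of -0.26 (SE 0.0602, edgeR adjusted p = 0.00888). In Cox5a, 7 controls lay above all LSD-treated rats. Cox5b had 139, 154 and 170 RPM with LSD and 149, 172 and 246 RPM in controls, with a log2 fold change of -0.22 (SE 0.0678, edgeR adjusted p = 0.0355). The top value of Cox5b, 246 RPM, came from saline replicate 9.

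Cox8a, a subunit of a single membrane helix, had 154, 167 and 185 RPM with LSD and 162, 195 and 253 RPM in controls. In Cox8a, 9 controls lay above all LSD-treated rats, and the log2 fold change was -0.24 (SE 0.0591, edgeR adjusted p = 0.0118). Its relatives Cox8b and Cox8c are muscle and testis forms, and neither passed the filter. Cox8b had 0 to 11 reads per library, with 5 reads or more in 5 libraries, and was the member closest below the filter, whereas Cox8c had at most 1 read.

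Cox6a1, the non-muscle form of subunit VIa, had 376, 389 and 411 RPM with LSD and 352, 435 and 548 RPM in controls. In Cox6a1 the lowest value of all was a control, while 9 controls lay above every LSD-treated rat. Its log2 fold change was -0.17 (SE 0.0567, edgeR adjusted p = 0.0425). Leaving out any 1 of 13 rats (LSD replicates 2, 3, 4, 5, 7, 8, 9 and 10 and saline replicates 1, 3, 4, 5 and 9) ended this call, with adjusted p-values up to 0.0776. For Cox5b, 7 such rats (LSD replicates 2, 3, 4, 5 and 8 and saline replicates 1 and 5) did so, with values up to 0.0622. Cox6a2, the heart and muscle form, had 1.40, 1.91 and 2.34 RPM with LSD and 1.13, 1.86 and 3.32 RPM in controls, with a log2 fold change of -0.13 (SE 0.165, edgeR adjusted p = 0.624). The LSD-treated rats lay inside the control range for Cox6a2. Of the Cox6b pair, Cox6b2, the testis form, was at -0.14 (SE 0.178, edgeR adjusted p = 0.651), and Cox6b1 was not analysed here.

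Cox7a2, the form of subunit VIIa found outside muscle, had 14.7, 18.2 and 21.0 RPM with LSD and 17.0, 21.7 and 33.7 RPM in controls. In Cox7a2, 8 controls lay above all LSD-treated rats, and its log2 fold change was -0.32 (SE 0.0920, edgeR adjusted p = 0.0234). With total-count scaling the call of Cox7a2 was lost (adjusted p = 0.0566). Cox7a1, the muscle form, was the member just inside the filter, with 5 to 26 reads per library, and had 0.405, 0.558 and 1.14 RPM with LSD and 0.304, 0.651 and 1.04 RPM in controls. Its log2 fold change was -0.06 (SE 0.227, edgeR adjusted p = 0.883), so that differences of the size seen in Cox7a2 were not detectable at this depth. Cox7a2l, which joins complexes III and IV into supercomplexes, had 119, 129 and 156 RPM with LSD and 116, 131 and 172 RPM in controls. The LSD-treated rats lay inside the control range for Cox7a2l, and its log2 fold change was -0.02 (SE 0.0744, edgeR adjusted p = 0.885). Cox7a2l2, named as a near copy of Cox7a2l, was at -0.08 (SE 0.147, edgeR adjusted p = 0.766), and reads may be split between such copies.

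The other 3 subunits had log2 fold changes of -0.20 (Cox7c), -0.04 (Cox7b) and -0.02 (Cox6c), with edgeR adjusted p-values of 0.146, 0.852 and 0.939. Cox7b2 had 0 to 4 reads per library and did not enter the test. A pseudogene listed as Cox6c-ps1 had 0 reads.

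Of the 10 assembly factors of complex IV tested, 3 fell. Cox14 couples the synthesis of the mitochondrially encoded COX1 to assembly. It had 72.8, 81.6 and 94.8 RPM (lowest, median and highest) with LSD and 76.8, 105 and 125 RPM in controls, with a log2 fold change of -0.35 (SE 0.0790, edgeR adjusted p = 0.00807). In Cox14, 8 controls lay above all LSD-treated rats. Cox19, a copper-handling protein of the intermembrane space, had 28.9, 30.2 and 32.5 RPM with LSD and 32.1, 33.8 and 39.0 RPM in controls. In Cox19, 9 of the 10 LSD-treated rats lay below all controls, the largest number among the members. Its log2 fold change was -0.20 (SE 0.0461, edgeR adjusted p = 0.00854), and with the span offsets and the replicate block together the call was lost (adjusted p = 0.0659). Cox10, which makes the haem A precursor, had 24.2, 25.7 and 30.9 RPM with LSD and 26.9, 30.6 and 31.9 RPM in controls. In Cox10, 8 LSD-treated rats lay below all controls while LSD replicate 1 lay above the control median, and the log2 fold change was -0.20 (SE 0.0492, edgeR adjusted p = 0.0120). Cox10 was also the longest of the 15, with a span of 111801 bases, and its log2 fold change was -0.30 with the span offsets.

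Cox15, which acts after Cox10 in haem A synthesis, was at -0.01 (SE 0.0642, edgeR adjusted p = 0.934). Of the copper chaperones, Sco1, which loads copper into COX2, had 10.6, 12.2 and 13.9 RPM with LSD and 11.8, 13.5 and 14.5 RPM in controls. For Sco1, 9 LSD-treated rats lay below the control median, and its log2 fold change was -0.16 (SE 0.0605, edgeR adjusted p = 0.0814). Sco2 was not analysed here. Surf1, which acts on the early COX1 intermediate, was listed with 0 reads in all 20 libraries, a count that allows up to 3 reads in a library for counting error alone. Whether the annotation or the counting could give reads to Surf1 was not tested. Cox16, another factor for COX2, had 11.2, 14.1 and 16.3 RPM with LSD and 8.33, 11.7 and 14.6 RPM in controls. In Cox16, 4 LSD-treated rats lay above all controls, and its log2 fold change was +0.24 (SE 0.102, edgeR adjusted p = 0.103). The other 4 (Cox11, Cox17, Cox18 and Cox20) lay between -0.05 and +0.03, with edgeR adjusted p-values from 0.695 to 0.968.

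For most members, the spread between rats was larger in controls. For 37 of the 42 members, the coefficient of variation (SD over mean of the RPM) was larger in controls, with a median of 14.8% against 9.32% in LSD-treated rats. The same count was not made over all genes, so it does not show a trait particular to the members. Saline replicate 9 was the highest control for 22 members, and for 12 of the 15 that fell. Without this rat 14 members fell and 0 rose, and the call that was lost was Cox6a1. Without saline replicate 2, 15 fell, and Cox16, Cycs and Uqcrc2 rose with edgeR adjusted p-values of 0.0435, 0.0272 and 0.0349. Calls over all genes also increased without saline replicate 2. Of 16511 genes tested, 1907 were then lower (11.5%) and 1669 higher, against 1418 and 1076 with all rats.

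Some members varied together from rat to rat, and others varied apart. Values as log2(RPM + 1) were centred within each group, which removed the difference in group means but not that in spread. Pearson's r over the 20 rats is given as a description, since all values of a rat share 1 library. The median r was 0.28 over all 861 pairs of members, which ran from -0.76 to 0.96. It was 0.68 over the 105 pairs of members that fell, 0.29 over pairs that did not, and 0.17 between the former and the latter. Members that fell also had more reads. The highest count in any library had a median of 4040 reads over them and of 412 over the others. The part of read depth in these values of r was not tested. Pairs of other genes were not taken as a background. Uqcrc1 and Cyc1 varied together (r = 0.96, Spearman's rho = 0.95), as did Uqcrq and Cox4i1 (r = 0.93, rho = 0.90) and Sdhb and Sdhd (r = 0.95, rho = 0.91). The core partners Uqcrc1 and Uqcrc2 did not, with r = -0.34 and rho = -0.42, and r = -0.77 without saline replicates 9 and 10, the rats farthest from the median of Uqcrc1, or -0.61 without saline replicate 9 alone. Cycs and Cyc1 had r = -0.48 (rho = -0.55). Within LSD-treated rats and within controls, r was 0.88 and 0.97 for Uqcrc1 with Cyc1. For Uqcrc1 with Uqcrc2 it was -0.60 and -0.29 in the same order.

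The 10 members that varied most closely with the mitochondrial genome, with r from 0.71 to 0.92, had not fallen, and the highest r among those that fell was 0.46, for Cox7a2. With the mean of its 13 protein genes, r was 0.92 for Cox7b, 0.89 for Uqcrc2 and 0.80 for Cycs, and these values were 0.86, 0.82 and 0.77 without saline replicates 2 and 4. It was -0.44 for Uqcrc1 and -0.60 for Cyc1, and -0.24 and -0.36 without the same rats, but -0.75 and -0.82 without saline replicate 9 alone. Within LSD-treated rats and within controls, it was -0.81 and -0.38 for Uqcrc1, and -0.75 and -0.57 for Cyc1. With the span dependence of the library, r was -0.94 for Cox4i1, -0.93 for Uqcrq and -0.92 for Uqcr11, and without saline replicates 9 and 10 it was -0.85, -0.87 and -0.82. It was -0.01 for both Uqcrc2 and Cycs, and +0.37 and +0.23 without the same rats. Over the members that fell, r with the span dependence ran from -0.94 (Cox4i1) to -0.35 (Cox10). Over the others it ran from -0.68 (Sdhb) to +0.38 (Cox16). Span dependence thus moved with members that fell and with some that did not. The part of library traits in the group difference was not tested.

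**Figure D4:**
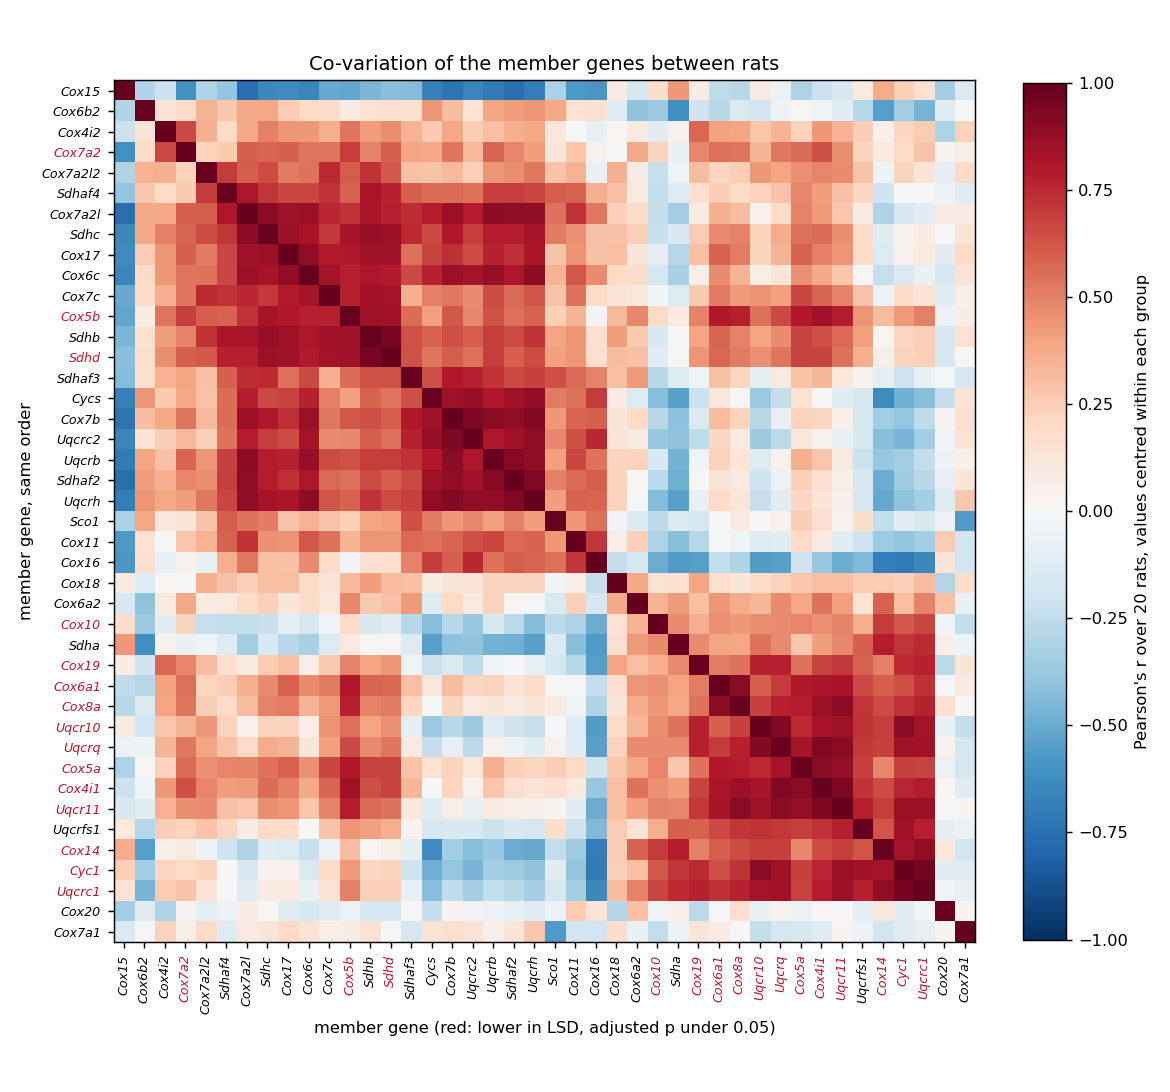
Pearson's r between the 42 member genes over 20 rats, on log2(RPM + 1) centred within each group, with genes ordered by average linkage and those that fell in red. Most red genes form a block at the lower right that includes Uqcrc1, Cyc1, Uqcrq and Cox4i1, and a block near the centre holds Cycs, Cox7b, Uqcrc2, Uqcrb and Uqcrh.

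The subunits that the mitochondrial genome encodes did not pass the test. Among its 13 protein genes, 0 fell and 0 rose (0 also at an unadjusted p under 0.05), with a median log2 fold change of +0.08. COX1, the haem and copper centre of complex IV, was at -0.15 (SE 0.109, edgeR adjusted p = 0.359), with all 10 LSD-treated rats below the control median. COX2, which accepts electrons from cytochrome c, was at +0.29 (SE 0.203, edgeR adjusted p = 0.358) and COX3 at +0.13 (SE 0.167, edgeR adjusted p = 0.639). CYTB, cytochrome b of complex III, was at -0.07 (SE 0.0908, edgeR adjusted p = 0.657). The share of reads on these 13 genes was 3.43% to 4.95% with LSD and 2.14% to 5.82% in controls (exact two-sided permutation test of the rank sum, p = 0.853, n = 10 rats per group).

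Of 24 further genes for building complexes III and IV, 1 fell and 1 rose (4.17% each), below the 8.54% lower and 6.48% higher of all genes tested, with a median log2 fold change of -0.05. Coa6, a copper chaperone for COX2, fell with a log2 fold change of -0.55 (SE 0.124, edgeR adjusted p = 0.00854), from a control median of 8.41 to 5.91 RPM. Lrpprc, which stabilises mitochondrial mRNA, rose by 0.22 on the log2 scale (SE 0.0547, edgeR adjusted p = 0.0116), from 78.4 to 95.1 RPM. Coa6 has a span of 2603 bases and Lrpprc of 82476, and the part of span was not tested. Coa1 and Pet117 were not analysed here.

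Of 16 regulators of nuclear respiratory genes, 2 rose and 2 fell (12.5% each, beside 6.48% higher and 8.54% lower over all genes), and their median log2 fold change was +0.10. Ppargc1a, the coactivator PGC-1alpha, rose by 0.37 on the log2 scale (SE 0.0718, edgeR adjusted p = 0.00510), from a control median of 27.3 to 37.1 RPM, and all 10 LSD-treated rats lay above that median. Creb1, the cAMP-responsive factor, rose by 0.29 (SE 0.0950, edgeR adjusted p = 0.0408). Nrf1 had a log2 fold change of -0.17 (SE 0.0503, edgeR adjusted p = 0.0281) and Esrra, an orphan receptor that partners PGC-1alpha, one of -0.19 (SE 0.0604, edgeR adjusted p = 0.0402). All LSD-treated rats lay below the control median of Nrf1 and of Esrra. Ppargc1a and Creb1 have spans of 655711 and 69007 bases, and Nrf1 and Esrra of 105801 and 10124. The median over all genes was 24514 bases. The part of span in the changes of these regulators was not tested. Gabpa, the ETS factor, was at +0.17 and Tfam, which packages mitochondrial DNA, at +0.03, with edgeR adjusted p-values of 0.229 and 0.791.

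Of 17 general mitochondrial genes, Vdac2, Tomm40, Timm23, Phb and Slc25a4 fell and Hspa9 rose, 29.4% lower beside 8.54% of all genes and 18.2% of the shortest class. Vdac2 is an outer membrane channel, Tomm40 and Timm23 are import pores, Phb is a scaffold of the inner membrane, Slc25a4 exchanges ADP for ATP, and Hspa9 is the matrix chaperone that drives import. The median log2 fold change of the 17 was -0.08.

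Complex I and ATP synthase are the other complexes of oxidative phosphorylation. Of 45 complex I genes 10 fell and 0 rose (22.2%, median log2 fold change -0.14). Of 16 ATP synthase genes 5 fell and 0 rose (31.2%, median -0.12), beside 35.7% and -0.12 for the 42 members. Lower calls made up 8.54% of all genes tested and 18.2% of the shortest class by span. The median span was 7637 bases for complex I and 7125 for ATP synthase, against 9516 for the members. At an unadjusted p under 0.05, 1 complex I gene and 0 ATP synthase genes were higher. No difference between the complexes was tested.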

How the data were processed

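RNA from the mPFC of 20 rats (10 LSD, 10 saline) was sequenced with 1 library per rat, and groups were taken from the sample labels. The authors used TrimGalore for trimming, HISAT2 for alignment to rn6 and HTSeq for counting per gene, and deposited raw counts without normalisation or filter. Versions, annotation, strand setting and the treatment of reads with several alignments are not given in the sources used here, so overlapping genes, antisense partners and near copies may share reads. The 5 rows without a name, 25.5% to 29.0% of all counted reads per library, stayed out of library sizes and tests, and 27 date-like symbols were kept as named.

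Counts of genes that reached 5 reads in 10 or more libraries were tested with edgeR 4.0.16 in R 4.3.3 (TMM, quasi-likelihood F test, two-sided, Benjamini-Hochberg threshold 0.05). The SE is the log2 fold change over the square root of F, and 95% intervals are normal intervals from it. TMM-scaled RPM were used for levels, and log2(RPM + 1) for co-variation. The fit was checked on simulated counts. The study used DESeq2, which was run as an alternative (1.42.0), beside median-ratio and total-count scaling, no filter, the replicate number as a block, offsets for gene span (50 bins smoothed over 5, centred in each rat, from genes with a mean of at least 5 RPM), both together, equal depth, and each rat left out. Spans are from the GRCr8 annotation by symbol, for 89.9% of genes tested and all members, and stand in for rn6, so no gene coordinates are given. Rats with the same number correlated between -0.26 and 0.47 in their deviations from the group means, 6 of 10 pairs above 0.1. Their mean r was 0.145, against -0.0157 for rats with different numbers. The best match had the same number for 1 LSD-treated rat. No label says that the numbers mark a shared litter, batch or day, so the main fit does not pair rats.

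Genes with values in the text are the members past the threshold, complex II subunits, complex III core genes, Cycs, the copper chaperones, paralogue sets, and the members with the highest and lowest fold change. Others are given by range, except for a few named after their values were seen (Uqcrb, Uqcrh, Cox7b, Cox7c, Cox6c, Cox15 and Cox16). Members and gene lists were chosen with earlier results of these data known. Sdhaf1, Cox6b1 and Sco2 were not analysed here. Depth is given with the results, and precision is set by the spread between 10 rats.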

Additional observations from a re-analysis of the deposited data

Results flagged for a closer look

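In each group of 10 rats, the gap between the highest or lowest rat and its nearest neighbour was compared with the range of the group for every member, which made 84 groups. Chance marks about 1 in 20 groups, and 4 were marked. Cox10 was at 30.9 RPM in LSD replicate 1, against 27.4 RPM in the next LSD-treated rat. The other 3 came from saline replicate 9, the library with the most negative dependence on gene span. Cox4i2 was at 5.19 RPM there, against 3.80 RPM in the next control, Cox5b at 246 RPM against 196 RPM, and Cox7a2 at 33.7 RPM against 24.1 RPM. Without saline replicate 9, the calls of Cox10, Cox5b and Cox7a2 held, and that of Cox6a1 was lost.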

How the results depend on the processing

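The count of members that fell was 15 and lay between 10 and 16 in the alternatives to the processing: 16 with DESeq2 and with median-ratio size factors, 14 at equal depth, 12 without the filter, 11 with total-count scaling, and 10 with span offsets, with or without the replicate block. The latter 2 sets shared 9 members: Cox19 passed without the block alone and Cyc1 with it alone (adjusted p = 0.0390). It was 13 to 17 with each rat left out. With the replicate block, 15 fell and 1 rose (Cox16), and with the span offsets and the replicate block together 1 rose (Cycs). The count that rose was 0 to 3 with each rat left out, the highest without saline replicate 2. No member changed sign and passed the threshold.

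Over all genes, 1418 were lower and 1076 higher. Lower calls numbered 858 with total-count scaling and 836 without the filter, and higher calls 557 with span offsets. With each rat left out, lower calls ranged from 957 (without saline replicate 4) to 1907 (without saline replicate 2), and higher calls from 663 (without LSD replicate 8) to 1669 (without saline replicate 2). The cause was not tested, apart from the changed scaling, filter or number of rats itself. Cox4i2 passed without LSD replicates 4 or 8 or saline replicates 6, 8 or 10, with adjusted p-values down to 0.0329, and Uqcrfs1 without saline replicate 10. Among the single genes, 1125 values kept their side of the threshold, 13 gained it and 38 lost it. Depth limits members at few reads, such as Cox7a1 with at least 5 and Cycs with at least 41 reads per library.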

Other observations

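Ratios of subunits of 1 complex within a library do not depend on how libraries are scaled. These pairs were chosen after the values were seen, so they are given without a test. The log2 ratio of Uqcrc1 to Uqcrc2, the paired core proteins of complex III, was 1.05 to 1.67 in LSD-treated rats (median 1.27) and 1.15 to 2.36 in controls (median 1.62), with 9 LSD-treated rats below the control median. That of Cyc1 to Uqcrc2 was 0.68 to 1.30 (median 0.90) with LSD and 0.79 to 2.12 (median 1.24) in controls, again with 9 below. Uqcr10 to Uqcrh had medians of 0.76 with LSD and 1.30 in controls, and Cox4i1 to Cox6c 2.22 and 2.50, with all 10 LSD-treated rats below the control median in both pairs. The ranges of the groups overlapped for each of the 4 ratios, since 0 to 3 LSD-treated rats lay below all controls. The genes of a pair differed in r with the span dependence of the library (group-centred values). It was -0.70 for Uqcrc1 and -0.71 for Cyc1, against -0.01 for Uqcrc2. For Uqcr10 and Uqcrh it was -0.82 and -0.19, and for Cox4i1 and Cox6c -0.94 and -0.36. The part of span in these ratios was not tested.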
